A study of Homo sapiens with 12 samples.

Results

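Ribosome biogenesis factors are the proteins that transcribe, modify, fold and cut ribosomal RNA in the nucleolus and load it with ribosomal proteins. They were followed here as a list of 42 gene symbols, matched by name, and the list was drawn up with earlier results of these arrays known. Of the 42, 36 had a probe set annotated to that symbol alone, and where a gene had several, the brightest over the 12 arrays stood for it. All 36 exceeded the median of every one of the 12 arrays, so all 36 entered the test, among 12689 genes tested of 19777 with a probe set. NOP56, DKC1, BOP1 and PPAN were represented only by probe sets carrying several symbols, GNL3 and EBNA1BP2 were not listed under their symbols, and these 6 are not analysed here.

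The samples were 12 Affymetrix expression arrays of ML-2, an established human acute myeloid leukaemia line, in 4 groups of 3. The groups received solvent, SGI-110, ASTX660, or SGI-110 followed by ASTX660 (here the combination). SGI-110 (guadecitabine) is a dinucleotide that releases decitabine, an inhibitor of DNA methylation. It was used at 2 µM in a pretreatment of 24 h, and its single treatment is labelled 33 h. ASTX660 is an antagonist of the IAP proteins, which hold back cell death, and was added at 5 µM for the 9 h that followed, and every group without an agent received an equal volume of its solvent. The sources used here do not say whether SGI-110 was still present during those 9 h of the combination. The series' design text gives 3 independent experiments, and the arrays carry the numbers 2, 9 and 13 in their titles, without an order. All values are RMA log2 intensities deposited by the authors, and each change is a difference between group means on that scale, so a change of -0.24 is an array ratio near 1.18-fold. A level can be compared between arrays for 1 gene but not between genes. A gene was called when its limma p, adjusted by the Benjamini-Hochberg method over all 12689 genes, was under 0.05. The main fit did not pair arrays by title number. A fit with the number as a replicate block is given as an alternative.

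As background, RNA polymerase I transcribes the long ribosomal RNA precursor. Box C/D and box H/ACA particles, guided by small nucleolar RNAs, methylate and pseudouridylate it. The small subunit processome and its GTPases, helicases and endonuclease cofactors build the small subunit, and a separate set of factors builds the large one. Making ribosomes is among the costliest tasks of a growing cell, and the transcription factor MYC is known to drive many of these genes, commonly through the E-box sequence CACGTG near their promoters.

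With SGI-110 alone, 27 of the 36 factors fell, 0 rose and 9 did not pass the test. Among all genes tested 5.90% were called lower and 9.50% higher. The median change over the 36 factors was -0.24, against 0.00 over all genes tested, and the changes ran from -0.46 for DDX10 to 0.01 for RRP12. The steps were small and even: 35 of the 36 estimates lay below 0, and the largest fall was 1.37-fold. In 32 of the 36 the 3 SGI-110 arrays all lay below the 3 solvent arrays, a pattern found in 16.6% of all genes tested. The count was 17 without SGI-110 array 2 and 11 without the 4 arrays numbered 13. Lower calls over all genes tested also dropped in those fits, from 749 to 441 and 338. The median over the factors stayed between -0.27 and -0.22 over the 23 alternative settings. In RNA from whole cultures, fewer cells of a kind and less RNA of a gene per cell cannot be told apart.

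Cells that received ASTX660 were compared in the same way. In the combination against ASTX660, a comparison that shares no array with the first, 31 of the 36 fell, 0 rose and 5 did not pass, where 7.69% of all genes were called lower and 8.37% higher. The median change was -0.23, against -0.01 over all genes. The 3 combination arrays all lay below the 3 ASTX660 arrays for 35 of the 36 factors, against 15.2% of all genes, and RRP12 was the exception. Without combination array 2 the count was 16, without combination array 13 it was 17, and without the 4 arrays numbered 13 it was 14. Lower calls over all genes were 586, 567 and 425 in those fits, against 976 with all arrays. The factors called lower in both comparisons numbered 25, which is 92.6% of the first list and 80.6% of the second. Over all genes, 590 were called lower in both, 78.8% of the first list and 60.5% of the second.

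**Figure D1:**
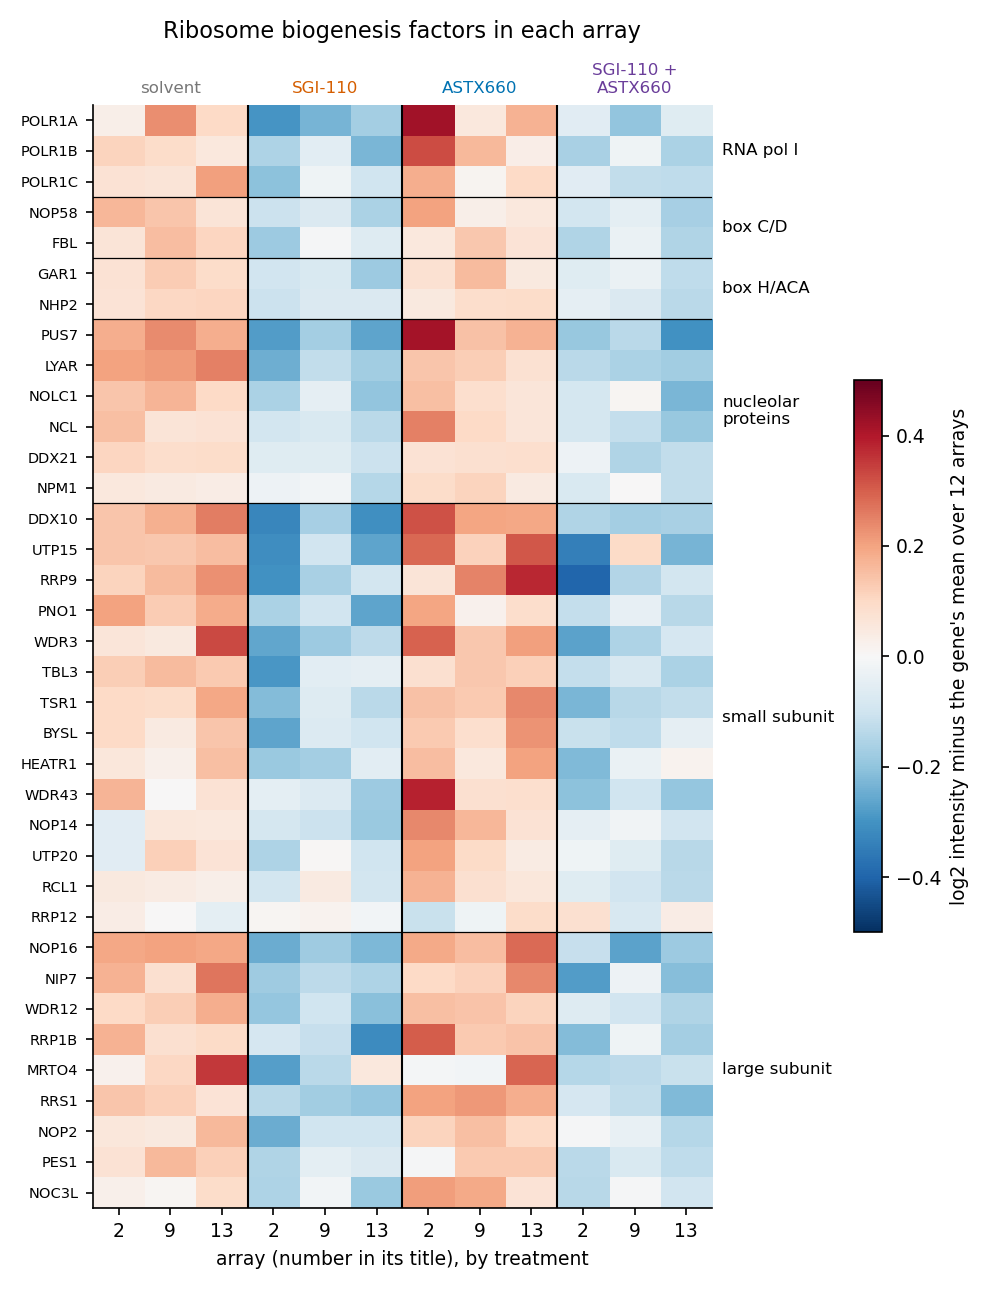
Each cell is the log2 intensity of a factor in 1 array minus that factor's mean over the 12 arrays, with factors in rows by role and arrays in columns by treatment. The 6 columns with SGI-110 are low and the 6 without it are high for most rows, and the row of RRP12 shows no such step.

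Set together, the 6 arrays with SGI-110 all lay below the 6 without it for 31 of the 36 factors, against 7.92% of all genes tested. The other 5 were UTP20, NOP14, RCL1, RRP12 and MRTO4. No factor had its 6 SGI-110 arrays all above the others, where 8.50% of all genes did.

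**Figure D2:**
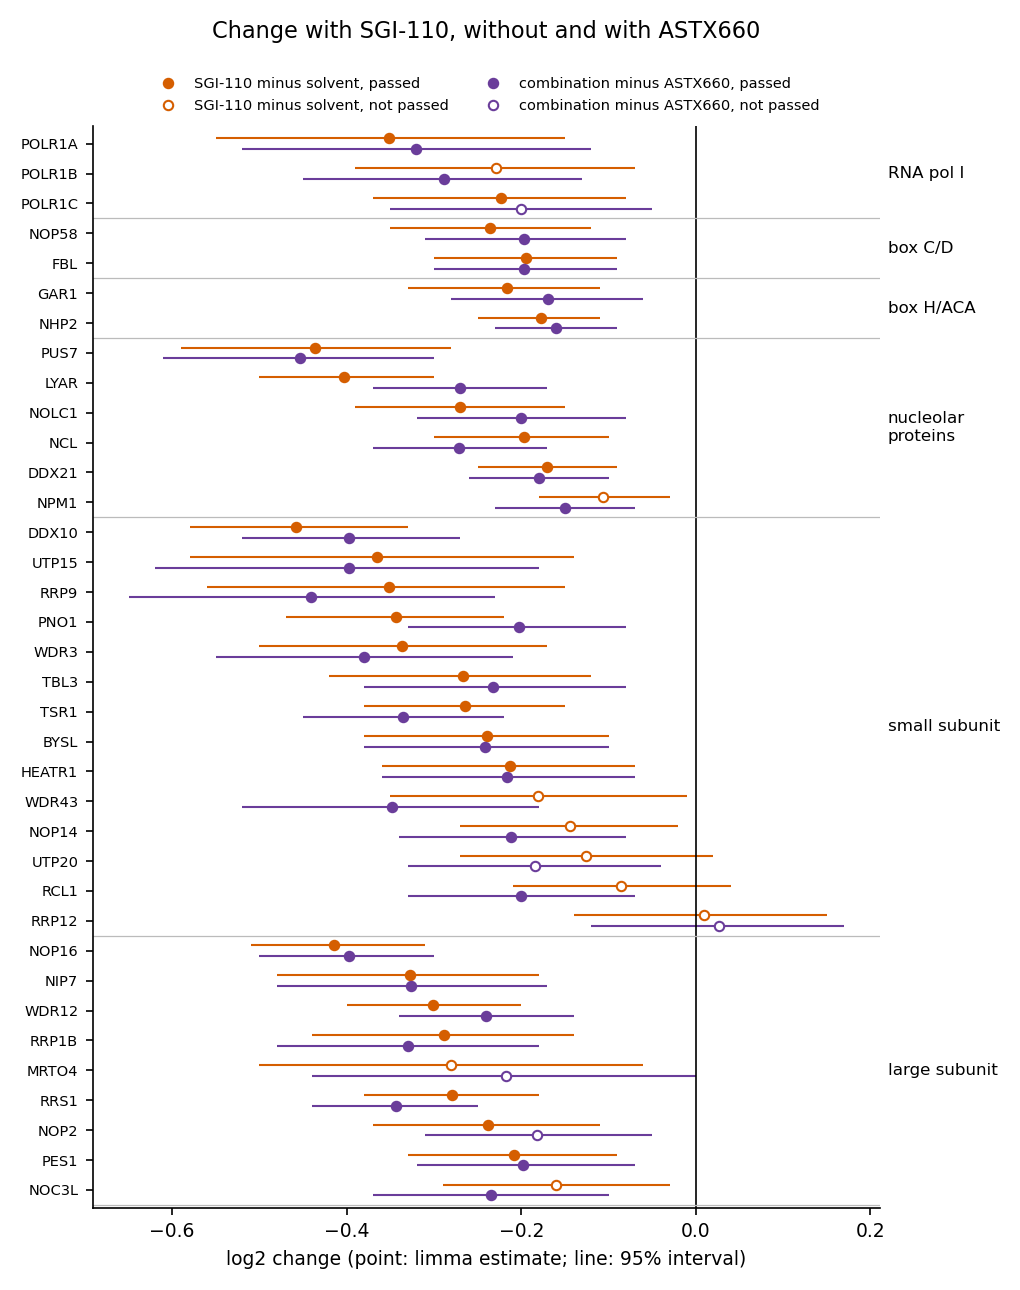
Points are limma log2 changes of the 36 factors with 95% intervals, for SGI-110 against solvent and for the combination against ASTX660, filled where the adjusted p passed 0.05. All points but those of RRP12 lie below 0 in both comparisons, and no filled point lies above 0.

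The promoters of the listed genes were searched for 10 short motifs on both strands. The windows came from RefSeq (GRCh38.p14) and ran from 250 bases before to 50 bases after the annotated start, and 36 of the 42 listed genes had one. NOP58, NOLC1, RRP12, BOP1, RRS1 and RRP1B had no entry. These 36 are not the 36 measured factors, and only 31 of them were tested on the arrays. The E-box CACGTG, which reads the same on both strands, was in 18 of the 36 windows, or 50%, and in 16 of the 31 (51.6%). It was in 1266 of the 10226 windows of tested genes (12.4%) and in 8.77% of the whole table. In 14 of the 36 windows (38.9%) the match began between the start, counted as position 1, and position 45, against 1.59% of tested genes. Among the 31 tested factors this held for 12 (38.7%). The windows below show 30 bases around the match, read 5′ to 3′ along the gene, with the E-box in capitals. The first 6 genes fell with SGI-110 alone. The last 3 did not pass in that comparison and fell in the combination against ASTX660. These are only part of the 16 tested factors with the motif. MRTO4 and UTP20, which passed in neither comparison, also carried it and are not shown.
PUS7: gtcgctgcgccgCACGTGtgcgagcccggc
PNO1: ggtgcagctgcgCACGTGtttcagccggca
FBL: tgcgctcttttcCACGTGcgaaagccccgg
GAR1: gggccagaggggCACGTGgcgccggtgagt
RRP9: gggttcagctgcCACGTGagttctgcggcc
LYAR: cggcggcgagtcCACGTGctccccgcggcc
NOC3L: tagggacttcggCACGTGtgtcattccccg
RCL1: cctgttccaaacCACGTGgacgcgtctggg
WDR43: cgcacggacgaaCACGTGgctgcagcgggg

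The PUS7 window is at chr7:105522226-105522255 on the minus strand, with the first base of the E-box 29 bases into the transcript counted from the start. Those of PNO1 (chr2:68157885-68157914, plus strand) and FBL (chr19:39846356-39846385, minus strand) have it at positions 10 and 7. In GAR1 (chr4:109815781-109815810, plus strand) it begins at position 32. RRP9 (chr3:51941892-51941921, minus strand) and LYAR (chr4:4290068-4290097, minus strand) carry it before the start used for their windows, at positions -5 and -64. The annotated gene span of LYAR reaches 4290154 and that of GAR1 begins at 109815510, so both these E-boxes lie inside the spans. Positions, and the shares by distance, rest on the start used for each window, and other starts would give other values. NOC3L (chr10:94362903-94362932, minus strand), RCL1 (chr9:4792936-4792965, plus strand) and WDR43 (chr2:28894658-28894687, plus strand) have it at positions 20, 5 and 4. The motif was in 10 of the 23 windows of factors that fell with SGI-110 alone and in 6 of the 8 windows of tested factors that did not pass. No test was made of this, and binding of any factor at these sites was not measured.

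**Figure D3:**
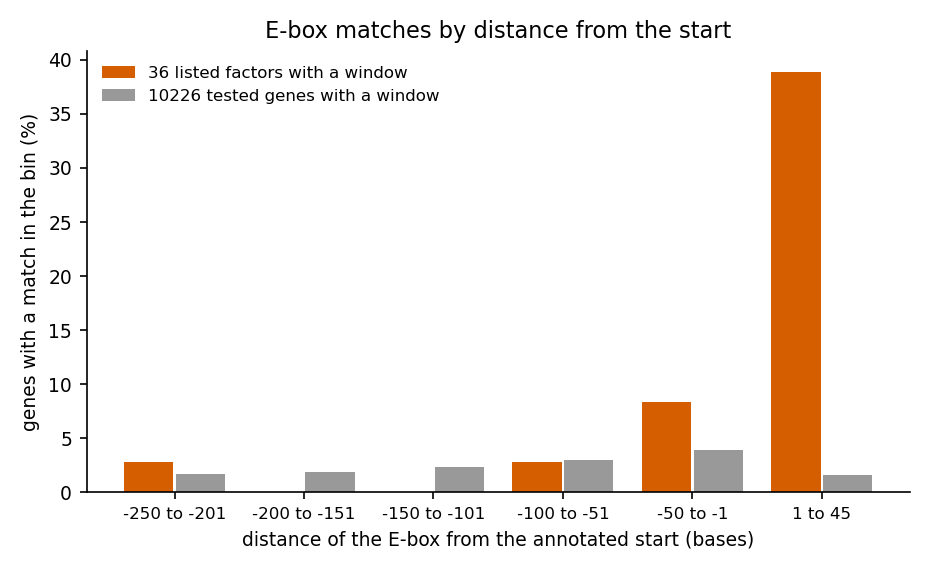
Bars give the share of windows with an E-box beginning in each stretch of the promoter, for the 36 listed factors with a window and for 10226 tested genes. Of these 36, 31 were tested on the arrays. The factors reach 38.9% in the stretch after the start, where all tested genes are at 1.59%.

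For the other motifs the shares were closer. The near-E-box CACGCG was in 10 of the 36 windows (27.8%) and in 21.7% of tested genes, and CCGGAAGT, the core bound by ETS factors, was in 19.4% and 9.69%. For TTTCCGG the shares were 16.7% and 8.73%, for AAGATGGC, part of the YY1 site, 8.33% and 6.29%, and for the NRF1 palindrome 5.56% and 2.69%. CCAAT was in 44.4% and 42.9%, the GC box GGGCGG in 77.8% and 74.4%, and TATAAA in 5.56% and 8.47%. The palindrome bound by ZBTB33 was in 1 of the 36 windows (2.78%) and in 0.939% of tested genes. None of the 10 motifs contains another.

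RNA polymerase I subunits are taken first, as the enzyme that starts the pathway, and array values are given in the order 2, 9, 13 throughout. POLR1A, the largest subunit, read 7.43, 7.64 and 7.50 in solvent, 7.11, 7.17 and 7.23 with SGI-110, 7.82, 7.46 and 7.58 with ASTX660, and 7.35, 7.20 and 7.34 with the combination. All 6 arrays with SGI-110 were below all 6 without it. POLR1A fell by 0.35 with SGI-110 alone (95% interval -0.55 to -0.15, limma adjusted p = 0.0189) and by 0.32 in the combination against ASTX660 (adjusted p = 0.0298). POLR1B, the second-largest subunit, read 9.38, 9.36 and 9.32 in solvent, 9.11, 9.21 and 9.04 with SGI-110, 9.59, 9.43 and 9.30 with ASTX660, and 9.10, 9.25 and 9.11 with the combination. Its groups were also separated, but its change of -0.23 with SGI-110 alone missed the threshold (adjusted p = 0.0513, or 0.00866 with the title number as a replicate block). POLR1B fell by 0.29 in the combination against ASTX660 (adjusted p = 0.0177). POLR1C, which RNA polymerase III also uses, fell by 0.22 with SGI-110 alone (adjusted p = 0.0392) and had a change of -0.20 in the second comparison (adjusted p = 0.0602). The POLR1A call with SGI-110 alone was lost without SGI-110 array 2 (adjusted p = 0.0752), SGI-110 array 9 (0.0513) or solvent array 9 (0.0898). In the second comparison it was lost without any 1 of the 3 combination arrays (0.0557 to 0.0936) or ASTX660 array 2 (0.0895) or 13 (0.0502), and the POLR1B call without combination array 2 (0.0667) or 13 (0.0658) or ASTX660 array 2 (0.0524).

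The particles guided by small nucleolar RNAs had 4 measured core proteins, and all 4 fell in both comparisons. NOP58, a scaffold protein of the box C/D particle, read 11.04, 11.01 and 10.94 in solvent, 10.77, 10.80 and 10.72 with SGI-110, 11.08, 10.90 and 10.93 with ASTX660, and 10.78, 10.82 and 10.71 with the combination. The groups did not overlap, and NOP58 was 15.1% lower with SGI-110 alone (log2 change -0.24, 95% interval -0.35 to -0.12, limma adjusted p = 0.00851). FBL, fibrillarin, the methyltransferase of the same particle, read 11.79, 11.88 and 11.83 in solvent, 11.54, 11.72 and 11.66 with SGI-110, 11.78, 11.86 and 11.79 with ASTX660, and 11.58, 11.69 and 11.58 with the combination. Number 9 was the highest array of each group for FBL, and within each number the SGI-110 array was lower. FBL fell by 0.19 with SGI-110 alone (adjusted p = 0.0159) and by 0.20 in the second comparison (adjusted p = 0.0149).

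In the box H/ACA particle, NHP2 read 12.23, 12.26 and 12.26 in solvent, 12.05, 12.09 and 12.09 with SGI-110, 12.21, 12.25 and 12.25 with ASTX660, and 12.11, 12.09 and 12.02 with the combination. NHP2 binds the guide RNA's fold, and its SDs were 0.021 in solvent, 0.021 with SGI-110, 0.024 with ASTX660 and 0.046 with the combination (n = 3 each). It was 11.5% lower with SGI-110 alone (log2 change -0.18, 95% interval -0.25 to -0.11, limma adjusted p = 0.00217) and 10.5% lower in the combination against ASTX660 (adjusted p = 0.0044). GAR1, which sits on the catalytic subunit, read 9.92, 9.97 and 9.93 in solvent, 9.75, 9.77 and 9.66 with SGI-110, 9.92, 10.00 and 9.89 with ASTX660, and 9.78, 9.81 and 9.72 with the combination. It fell by 0.22 (adjusted p = 0.0111) and by 0.17 (adjusted p = 0.0373). Without solvent array 9 the calls of FBL (adjusted p = 0.0724) and GAR1 (0.0508) with SGI-110 alone were lost, as was that of FBL without SGI-110 array 2 (0.0753) and that of GAR1 without SGI-110 array 13 (0.0547). In the second comparison, leaving out combination array 13 ended the calls of NOP58 (0.0928), FBL (0.0598) and GAR1 (0.139), and leaving out combination array 2 also did so (0.0535, 0.0617 and 0.0756). There the calls of FBL (0.0639) and GAR1 (0.144) were also lost without ASTX660 array 9, and that of NOP58 without ASTX660 array 2 (0.0648). GAR1 was just past the threshold without solvent array 2 (0.0528) or 13 (0.0523), arrays outside that comparison. Its change stayed at -0.17 in those fits.

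Nucleolar proteins and enzymes of wider function came next, and 5 of 6 fell with SGI-110 alone and 6 of 6 in the combination against ASTX660. LYAR, a zinc-finger protein of the nucleolus linked to cell growth, read 10.23, 10.24 and 10.28 in solvent, 9.78, 9.90 and 9.85 with SGI-110, 10.16, 10.15 and 10.10 with ASTX660, and 9.89, 9.87 and 9.85 with the combination. It was 24.4% lower with SGI-110 alone (log2 change -0.40, 95% interval -0.50 to -0.30, limma adjusted p = 8.02e-05) and 17% lower in the second comparison (adjusted p = 0.00163). With ASTX660 alone the 3 LYAR arrays were also below solvent, with a change of -0.11 that did not pass (adjusted p = 0.701). PUS7, a pseudouridine synthase that acts on several kinds of RNA, read 9.40, 9.46 and 9.41 in solvent, 8.95, 9.06 and 8.96 with SGI-110, 9.64, 9.37 and 9.40 with ASTX660, and 9.04, 9.09 and 8.92 with the combination. It fell by 0.44 (95% interval -0.59 to -0.28, adjusted p = 0.00132) and by 0.45 (adjusted p = 0.00104), the widest change of the 36 in the second comparison.

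NCL and NPM1 are the abundant nucleolar proteins nucleolin and nucleophosmin, and NPM1 is often mutated in acute myeloid leukaemia. NCL read 12.59, 12.51 and 12.52 in solvent, 12.35, 12.37 and 12.31 with SGI-110, 12.70, 12.54 and 12.51 with ASTX660, and 12.35, 12.32 and 12.25 with the combination. Its groups were apart, and NCL fell by 0.20 with SGI-110 alone (limma adjusted p = 0.0108, and 0.0513 without solvent array 2) and by 0.27 in the second comparison (adjusted p = 0.00157). NPM1 read 13.27, 13.27 and 13.26 in solvent, 13.20, 13.21 and 13.08 with SGI-110, 13.31, 13.34 and 13.27 with ASTX660, and 13.15, 13.22 and 13.10 with the combination. Number 13 was the lowest array of every group. The change of -0.11 with SGI-110 alone did not pass (adjusted p = 0.0691, or 0.004 with the replicate block), and NPM1 fell by 0.15 in the second comparison (adjusted p = 0.0142). That call was lost without combination array 13 (0.0665) or ASTX660 array 9 (0.0574). The other 2 NPM1 probe sets bright enough to test fell by 0.21 and 0.25 with SGI-110 alone. NOLC1, which chaperones the small nucleolar particles, fell by 0.27 and 0.20, and the helicase DDX21 by 0.17 and 0.18.

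**Figure D4:**
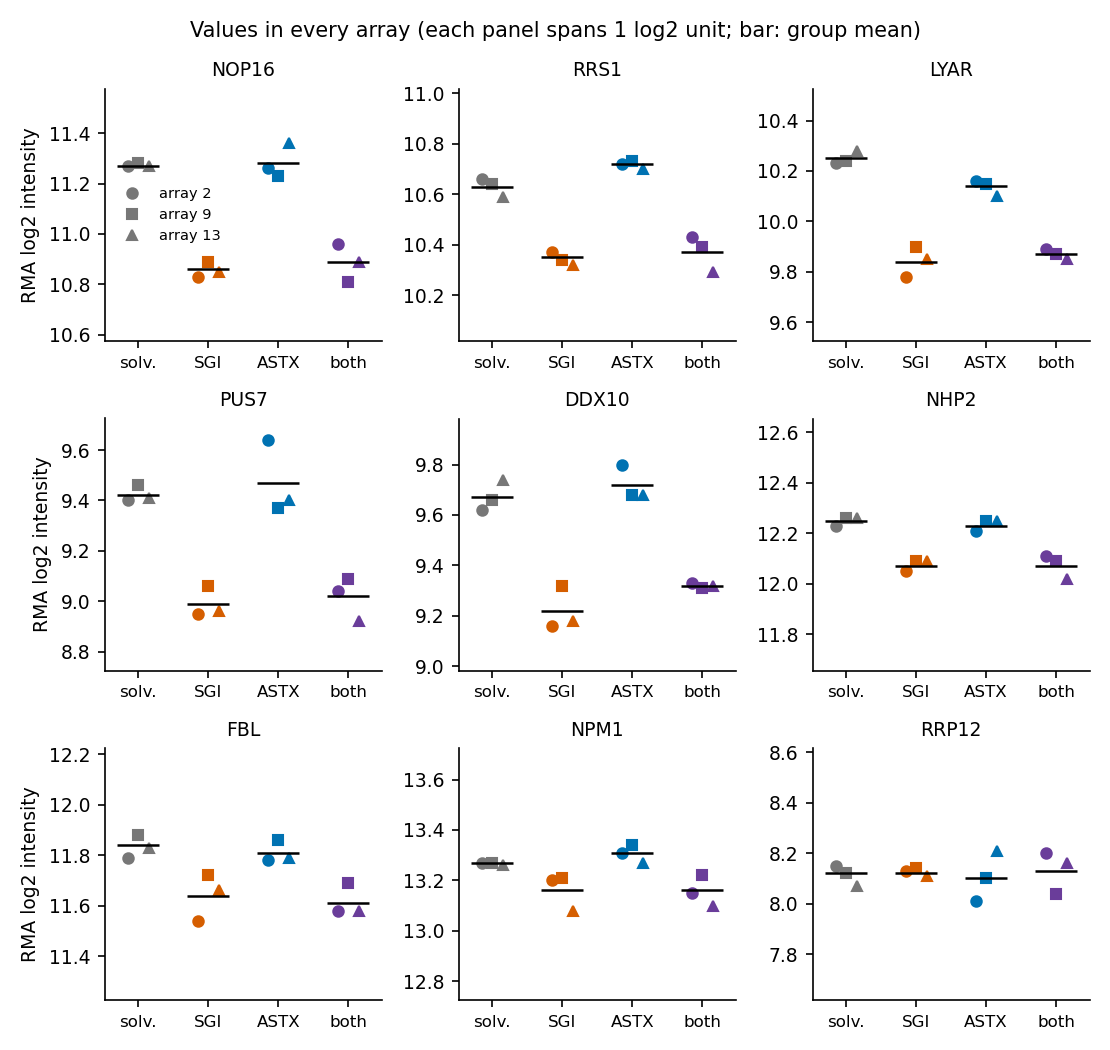
Each panel shows a factor's RMA log2 intensity in the 12 arrays by treatment, with a symbol for each title number and a bar at the group mean, on axes that each span 1 log2 unit. NOP16, RRS1, LYAR, PUS7, DDX10, NHP2, FBL and NPM1 are lower in both SGI-110 groups, by steps from 0.11 to 0.46 for SGI-110 alone, and RRP12 is level.

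Small subunit factors were the largest role, with 9 of 14 lower with SGI-110 alone and 12 of 14 in the combination against ASTX660. DDX10, a helicase that releases a small nucleolar RNA from the precursor, read 9.62, 9.66 and 9.74 in solvent, 9.16, 9.32 and 9.18 with SGI-110, 9.80, 9.68 and 9.68 with ASTX660, and 9.33, 9.31 and 9.32 with the combination. It had the largest fall of the 36 with SGI-110 alone, 27.2% (log2 change -0.46, 95% interval -0.58 to -0.33, limma adjusted p = 0.000189), and fell by 0.40 in the second comparison (adjusted p = 0.000557). PNO1, which helps the cut that finishes the small subunit's RNA, read 10.15, 10.07 and 10.13 in solvent, 9.79, 9.85 and 9.68 with SGI-110, 10.14, 9.97 and 10.03 with ASTX660, and 9.82, 9.90 and 9.81 with the combination. PNO1 fell by 0.34 (adjusted p = 0.00155) and by 0.20 (adjusted p = 0.0313). TSR1, a GTPase-like factor of late small subunit particles, read 10.16, 10.15 and 10.25 in solvent, 9.84, 9.99 and 9.93 with SGI-110, 10.21, 10.19 and 10.30 with ASTX660, and 9.83, 9.92 and 9.94 with the combination. TSR1 fell by 0.27 (adjusted p = 0.00544) and by 0.33 (adjusted p = 0.00128), with no overlap between arrays with and without SGI-110.

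WDR3, a beta-propeller protein of the processome, read 9.68, 9.67 and 9.95 in solvent, 9.36, 9.44 and 9.49 with SGI-110, 9.92, 9.76 and 9.83 with ASTX660, and 9.36, 9.47 and 9.54 with the combination. Solvent array 13 was the highest of the 12, and the SGI-110 arrays were all low. WDR3 fell by 0.34 with SGI-110 alone (limma adjusted p = 0.0102) and by 0.38 in the second comparison (adjusted p = 0.00515). RRP12 read 8.15, 8.12 and 8.07 in solvent, 8.13, 8.14 and 8.11 with SGI-110, 8.01, 8.10 and 8.21 with ASTX660, and 8.20, 8.04 and 8.16 with the combination. RRP12 takes part in the export and maturation of small subunit particles, and its groups overlapped throughout. Its changes were 0.01 (95% interval -0.14 to 0.15) and 0.03 (-0.12 to 0.17), so a fall as large as the median of the 36 lay outside both intervals for this probe set. The PNO1 call in the second comparison was lost without combination array 2 (adjusted p = 0.0901) or 13 (0.106) or ASTX660 array 2 (0.0888) or 13 (0.0585).

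Among the other small subunit factors, HEATR1, UTP15, TBL3, RRP9 and BYSL fell in both comparisons. RRP9, which binds the U3 small nucleolar RNA, fell by 0.35 and by 0.44, and UTP15 fell by 0.36 and by 0.40. UTP15 read 7.39 in combination array 9 and 6.95 and 7.06 in arrays 2 and 13, the widest spread of any factor in that group. HEATR1 fell by 0.21 and 0.22, TBL3 by 0.27 and 0.23, and BYSL by 0.24 and 0.24. WDR43, NOP14 and RCL1 did not pass with SGI-110 alone (changes of -0.18, -0.14 and -0.09) and fell in the combination against ASTX660, by 0.35, 0.21 and 0.20. UTP20 passed in neither, with changes of -0.13 and -0.18 (limma adjusted p = 0.253 and 0.0817, or 0.163 and 0.0363 with the replicate block).

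Large subunit factors fell in 7 of 9 cases in each comparison. NOP16, a nucleolar protein of large subunit precursors, read 11.27, 11.28 and 11.27 in solvent, 10.83, 10.89 and 10.85 with SGI-110, 11.26, 11.23 and 11.36 with ASTX660, and 10.96, 10.81 and 10.89 with the combination. The solvent arrays were tight (SD 0.006, n = 3), all arrays with SGI-110 lay lower, and NOP16 was 24.9% lower with SGI-110 alone (log2 change -0.41, 95% interval -0.51 to -0.31, limma adjusted p = 6.79e-05), the smallest adjusted p of the 36. It fell by 0.40 in the second comparison (adjusted p = 0.000113). RRS1, which helps place the small ribosomal RNA of the large subunit, read 10.66, 10.64 and 10.59 in solvent, 10.37, 10.34 and 10.32 with SGI-110, 10.72, 10.73 and 10.70 with ASTX660, and 10.43, 10.39 and 10.29 with the combination. RRS1 fell by 0.28 (adjusted p = 0.00103) and by 0.34 (adjusted p = 0.000259).

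WDR12, a partner of PES1 and BOP1 in the PeBoW complex, read 10.20, 10.22 and 10.28 in solvent, 9.91, 10.00 and 9.89 with SGI-110, 10.25, 10.24 and 10.21 with ASTX660, and 10.04, 10.01 and 9.95 with the combination. WDR12 fell by 0.30 (limma adjusted p = 0.000913) and by 0.24 (adjusted p = 0.00434) on this probe set, but its other bright probe set gave changes of -0.05 and -0.06 that did not pass (adjusted p = 0.855 and 0.777). NIP7, needed for large subunit assembly, read 9.68, 9.59 and 9.78 in solvent, 9.33, 9.38 and 9.35 with SGI-110, 9.61, 9.63 and 9.75 with ASTX660, and 9.23, 9.48 and 9.30 with the combination. NIP7 fell by 0.33 (adjusted p = 0.00677) and by 0.33 (adjusted p = 0.0072), and the groups were apart in both. NOC3L read 9.83, 9.81 and 9.90 in solvent, 9.65, 9.79 and 9.62 with SGI-110, 10.01, 10.00 and 9.87 with ASTX660, and 9.67, 9.80 and 9.71 with the combination. SGI-110 array 9 and combination array 9 of NOC3L lay close under the lowest solvent array. The change with SGI-110 alone was -0.16 (adjusted p = 0.0967, or 0.0366 with the replicate block), and NOC3L fell by 0.24 in the second comparison (adjusted p = 0.0181). That call was lost without combination array 2 (0.0732) or 13 (0.0596) or ASTX660 array 9 (0.0658).

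Of the remaining large subunit factors, PES1, the other measured member of the PeBoW complex, fell by 0.21 and 0.20, and RRP1B by 0.29 and 0.33. The methyltransferase NOP2 fell by 0.24 with SGI-110 alone. Its change of -0.18 in the second comparison did not pass (limma adjusted p = 0.0598, or 0.0294 with the replicate block). MRTO4, which holds the place of a stalk protein on the immature large subunit, did not pass in either. Its arrays differed widely within groups: it read 9.16, 9.24 and 9.49 in solvent and 8.86, 9.00 and 9.19 with SGI-110. Within each title number the SGI-110 array was lower, the change was -0.28 (limma adjusted p = 0.0836), and it passed with the replicate block (adjusted p = 0.00249). In the second comparison the MRTO4 change was -0.22 (adjusted p = 0.174, or 0.014 with the replicate block).

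Calls of the factors described only by their change were also lost in fits that left out single arrays. With SGI-110 alone, HEATR1, POLR1C, TBL3 and UTP15 were lost without solvent array 2, 9 or 13 or SGI-110 array 2, and UTP15 and POLR1C also without SGI-110 array 13. BYSL was lost without solvent array 2 or 13 or SGI-110 array 2, NOP2 without solvent array 13 or SGI-110 array 2, and RRP1B without solvent array 2 or SGI-110 array 13. PES1 was lost without solvent array 9 or 13 or SGI-110 array 2 or 13, RRP9 without solvent array 9 or 13 or SGI-110 array 2 or 9, and HEATR1 also without SGI-110 array 9 or combination array 9. Their limma adjusted p in these fits was between 0.0506 and 0.164. In the second comparison, leaving out combination array 2 ended 8 such calls (BYSL, HEATR1, NOLC1, NOP14, PES1, RCL1, TBL3 and UTP15). Leaving out combination array 13 ended 6 (NOLC1, NOP14, PES1, RCL1, TBL3 and UTP15) and leaving out combination array 9 ended 4 (BYSL, HEATR1, RCL1 and TBL3). Without ASTX660 array 13, 5 were lost (BYSL, HEATR1, PES1, TBL3 and UTP15). Without ASTX660 array 9, 5 were lost (NOLC1, NOP14, PES1, RCL1 and TBL3), and without ASTX660 array 2, 4 were (HEATR1, NOLC1, NOP14 and RCL1). HEATR1 was also lost without solvent array 2 or 9 or SGI-110 array 2 or 9, and RCL1 and TBL3 without solvent array 2, and the adjusted p in these fits was between 0.0506 and 0.178. Processing ended calls too. HEATR1 was called in 11 and 8 of the 23 alternatives. In both comparisons it was lost after median centring, without the brightness filter or intensity trend, and with the mean or second probe set. With SGI-110 alone, median centring ended POLR1C and the second probe set UTP15. In the second comparison, median centring ended RCL1, TBL3 and NOP14, and the mean of the probe sets RCL1, TBL3, PES1 and NOLC1.

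Leaving out all 4 arrays numbered 13, an alternative chosen after seeing that they stood apart, kept 2 arrays a group. With SGI-110 alone the calls of FBL (limma adjusted p = 0.0847), GAR1 (0.125), NIP7 (0.0745), POLR1A (0.0795), TSR1 (0.0672) and WDR3 (0.0529) were then lost. In the combination against ASTX660, FBL (0.105), GAR1 (0.163), NHP2 (0.0935), NIP7 (0.09), NOP58 (0.0997), PNO1 (0.15), POLR1A (0.0984) and WDR12 (0.0516) were. Among the factors without array values above, 10 and 9 further calls were lost. The changes named here kept their direction, from -0.39 for POLR1A to -0.19 for GAR1 in the first set. DDX10, RRS1, NOP16, NOP58, PUS7, LYAR, NHP2 and NOLC1 were called lower with SGI-110 alone under every alternative that gave them a value. In the second comparison, WDR3, RRP1B, WDR43, RRS1, NOP16, PUS7, LYAR and RRP9 were. RRS1, NOP16, PUS7 and LYAR stand in both lists. Processing also ended calls of factors with array values. Without the intensity trend these were FBL and NCL with SGI-110 alone, and FBL, NOP58, GAR1, NPM1 and PNO1 in the second comparison. With the mean of the probe sets they were NCL and WDR12, and NCL, DDX10 and TSR1. The second probe set ended POLR1A and WDR12 in both, and PNO1 in the first. In the second, median centring ended GAR1 and PNO1, dropping the brightness filter GAR1, and weighting the arrays POLR1A. RRS1, PUS7, NOP58, NHP2, WDR43 and RRP9 have only 1 probe set. For them the alternatives that change the probe set reused the main values and could not give another reading.

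The combination against solvent shares its control arrays with the first comparison and its treated arrays with the second, so its values are set beside theirs without a test of overlap. In it 23 of the 36 factors fell and 0 rose, where 5.85% of all genes were called lower and 12.1% higher, and the median change was -0.23. NOP16 fell by 0.38, LYAR by 0.38, PUS7 by 0.41, RRS1 by 0.25 and DDX10 by 0.35. The combination arrays all lay below the solvent arrays for 33 of the 36, against 16.9% of all genes. POLR1A and POLR1B had changes of -0.23 and -0.20 that did not pass (limma adjusted p = 0.108 and 0.0797, or 0.0648 and 0.0198 with the replicate block), while POLR1C fell by 0.22. The replicate block also called NPM1 (adjusted p = 0.00261 against 0.0519 without it), MRTO4 (0.00188 against 0.0669), HEATR1 (0.0263 against 0.127), BYSL (0.0179 against 0.0566) and UTP15 (0.0212 against 0.0569) lower. Over all genes 67.4% of calls in this comparison were higher, 77.3% after centring each array on its median and 50.3% after quantile normalization. The factors called lower then numbered 19 and 32, where 3.62% and 10.2% of all genes were called lower. Without the 4 arrays numbered 13 they numbered 10, where 298 of the 12689 genes were called lower.

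With ASTX660 alone none of the 36 factors passed the test. No gene of the 12689 passed in limma against solvent, so 0.00% were called in either direction, and 894 genes and 2 of the 36 factors had an unadjusted p under 0.05. With the replicate block 1 gene was called higher, and it was none of the factors. Those 2 were LYAR, at -0.11 (unadjusted p = 0.0328), and NOP14, at 0.14 (unadjusted p = 0.0341), each with adjusted p = 0.701. The median change of the factors was 0.04, against 0.03 over all genes, with 22 estimates above 0 and 14 below. Arrays did not overlap for 5 factors: LYAR and DDX21 were lower, where 4.68% of all genes were, and RCL1, RRS1 and NOP14 were higher, where 7.59% of all genes were. The 95% intervals of all 36 changes lay within 1.24-fold of no change.

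None of the factors was called when ASTX660 followed SGI-110. In the combination against SGI-110, 0.00% of genes passed in either direction in limma, 370 genes and 0 factors had an unadjusted p under 0.05, and the median change of the factors was 0.02. The replicate block called 10 genes higher and 0 lower, none of them a factor. Every interval lay within 1.25-fold of no change, and arrays overlapped between these groups for all 36, where 4.16% of all genes were lower and 4.53% higher without overlap. DDX10 had the smallest p of the 36, with a change of 0.11 (95% interval -0.02 to 0.23). SGI-110 exposure may have differed between these groups, since one is labelled 33 h and the other 24 h.

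The interaction asks whether the SGI-110 step differs with and without ASTX660. SGI-110 is labelled 33 h in the single treatment and 24 h in the combination, so exposure may differ as well. The interaction cannot tell the 2 apart. No factor and 0.00% of genes passed, and 204 genes and 0 factors had an unadjusted p under 0.05 in limma. The median over the 36 factors was -0.00, and estimates ran from -0.17 for WDR43 to 0.14 for PNO1. LYAR had the smallest p, with a smaller fall by 0.13 in ASTX660-treated cells (95% interval -0.01 to 0.27, unadjusted p = 0.062). No interval reached beyond 1.33-fold of no difference, a size larger than most of the falls themselves. Smaller differences lay inside some of the intervals. The 6 factors called only in the combination against ASTX660 (NOC3L, NOP14, NPM1, POLR1B, RCL1 and WDR43) and the 2 called only with SGI-110 alone (NOP2 and POLR1C) are therefore not shown to differ between the comparisons.

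Arrays of a group were not equal. The median of the 36 factors, each taken against its own 12-array mean, was between 0.10 and 0.11 in solvent and between 0.10 and 0.16 with ASTX660. It was between -0.17 and -0.08 with SGI-110 and between -0.14 and -0.08 with the combination. Array 9 was the least low in both SGI-110 groups, at -0.08 in each. ASTX660 array 2 was the highest of the 12 at 0.16, where its median over all genes tested was also the highest, at 0.043, and it stood apart from the rest on the third principal component (11.7% of the variance). The first component (51.2%) parted arrays with and without SGI-110, and the second (13.9%) set the 4 arrays numbered 13 apart.

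**Figure D5:**
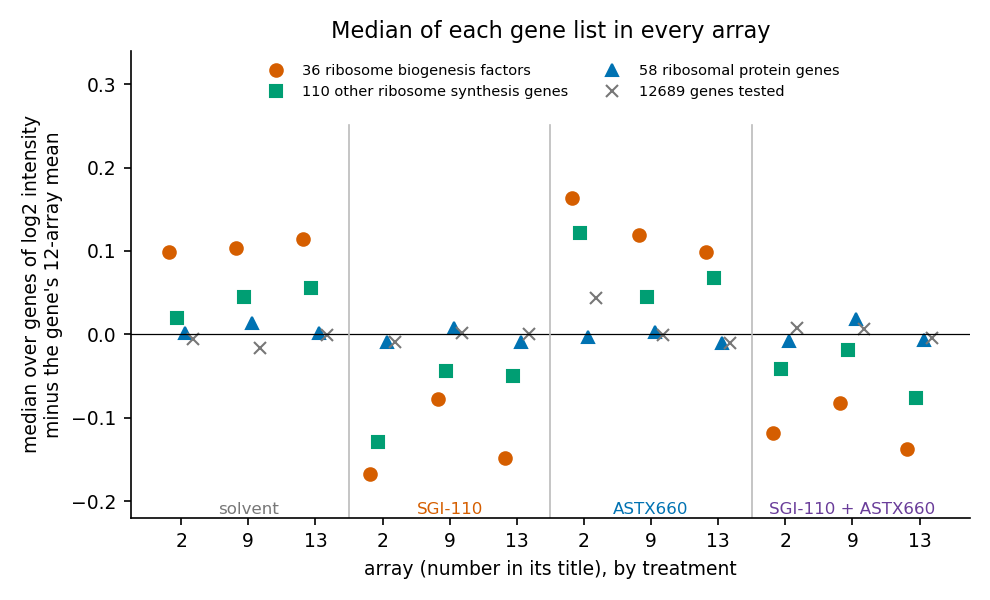
Points give, for every array, the median over a gene list of log2 intensity minus the gene's 12-array mean. The 36 factors are between -0.17 and -0.08 in the 6 arrays with SGI-110 and between 0.10 and 0.16 in the other 6, the 110 other ribosome synthesis genes take a smaller step, and the ribosomal protein genes stay between -0.010 and 0.018.

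Other probe sets of the same genes allowed a second reading. Besides the 36 used, the factors had 41 more probe sets, of which 29 in 18 genes were bright enough to test. With SGI-110 alone 26 of the 29 estimates lay below 0, with a median of -0.23, and 11 were called lower and 0 higher, where 4.29% of the 23660 probe sets in that fit were called lower and 6.96% higher. The 3 above 0 belonged to NOP16, RRP12 and TSR1. NOP16 thus disagreed with itself: a second probe set fell by 0.56, while the other 2 gave 0.08 and -0.01 and did not pass. TSR1 had a second probe set that fell by 0.31 and another at 0.01. POLR1A gave -0.11 and -0.22 on its other probe sets, UTP15 gave -0.14, HEATR1 gave -0.17 and -0.01, and PNO1 gave -0.24 and -0.23, and none of these passed with SGI-110 alone in a limma fit over all bright probe sets. The second comparison had 27 of the 29 below 0, and 14 were called lower and 0 higher, against 6.48% lower and 6.61% higher over all probe sets. Probe sets of 1 gene can read different transcripts or relatives, and these were not told apart.

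Beyond the 36, a list of 114 further ribosome synthesis genes gave 110 tested genes. With SGI-110 alone 26 fell, 2 rose and 82 did not pass, and the median change was -0.12. Over all genes tested 5.90% were called lower and 9.50% higher. RUVBL1, a helicase of the particle assembly machinery, and NOB1, the endonuclease that finishes the small subunit's RNA, fell by 0.36 and 0.36, and UBTF and NOP9 were the 2 that rose, by 0.26 and 0.37. UBTF activates transcription by RNA polymerase I, and NOP9 acts in small subunit assembly. These 4 were named after their values were seen. RUVBL1 and NOB1 were called with SGI-110 alone under all 23 alternatives, but the rises depended on the probe set: with the second probe set the change of UBTF was 0.06 and that of NOP9 -0.01, and neither passed. Both rises were also lost without the 4 arrays numbered 13, and that of UBTF without solvent array 13 or SGI-110 array 13. The list's count of lower calls fell to 12 without SGI-110 array 2, 13 without solvent array 9, 14 without solvent array 13, 16 without SGI-110 array 13, 17 without solvent array 2 and 8 without the 4 arrays numbered 13, while its median stayed between -0.14 and -0.09. Lower calls over all genes were between 338 and 517 in those fits, against 749 with all arrays. In the combination against ASTX660 27 fell and 0 rose, with a median of -0.13, where 7.69% of all genes were called lower and 8.37% higher. The lower calls were 11 without combination array 13 and 8 without the 4 arrays numbered 13. Those over all genes were 567 and 425, against 976 with all arrays. In the combination against solvent 20 fell and 2 rose, where 5.85% of all genes were called lower and 12.1% higher. That last count of lower calls was 7 without combination array 13, 8 without solvent array 9, 11 without solvent array 2 or 13, 12 without combination array 2 and 6 without the 4 arrays numbered 13. It was 10 after median centring, 35 after quantile normalization and 32 with the title number as a replicate block. Lower calls over all genes were 459, 1293 and 1273 in these settings, against 742 in the main fit. They were between 298 and 474 in the fits that left out the arrays just named. With ASTX660 alone 0 of the 110 were called and the median was 0.03. The E-box was in 25 of 93 promoter windows of these genes (26.9%).

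Ribosomal protein genes, whose products these factors assemble, were also read. Of 61 cytosolic ribosomal protein genes 58 were tested, and their median change with SGI-110 alone was -0.02. In that comparison 0 fell, where 5.90% of all genes did, and 2 rose, where 9.50% of all genes did. The 2 were RPS27L, a known p53 target, which rose by 0.44, and RPS19, which rose by 0.08. Against ASTX660, the combination again had 0 lower and 2 higher, with a median of -0.00, where 7.69% of all genes were lower and 8.37% higher. With SGI-110 alone RPS27L did not pass with its second probe set, and RPS19 passed in 17 of the 23 alternatives and did not after median centring or without solvent array 13. Over the 23 alternatives at most 4 of the 58 were called lower with SGI-110 alone, and the median stayed between -0.02 and -0.01. Their promoter windows held the E-box in 4 of 52 cases (7.69%), beside 12.4% of all tested genes, and no test was made of this.

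MYC itself was read as the best known regulator of the list. It read 11.58, 11.57 and 11.53 in solvent, 11.09, 11.16 and 11.02 with SGI-110, 11.54, 11.58 and 11.53 with ASTX660, and 11.25, 11.12 and 10.91 with the combination. All 6 arrays with SGI-110 were below all 6 without it. MYC was 28.0% lower with SGI-110 alone (log2 change -0.47, 95% interval -0.62 to -0.33, limma adjusted p = 0.000355) and 27.1% lower in the combination against ASTX660 (adjusted p = 0.000452). Its change with SGI-110 was called under all 23 alternatives in both comparisons. What part this had in the values of the 36 factors was not tested.

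Cell type markers were read on the same arrays. Of 7 myeloid markers tested, 6 were above the array median in all 12 arrays, MPO and LYZ among them. Markers of other cell types were not uniformly low. Of 7 epithelial or fibroblast markers, KRT8, KRT18 and COL1A1 were above the median in all 12 arrays and EPCAM and KRT19 in 0. Of 4 lymphoid markers, CD3E and CD79A were above it in all 12 and MS4A1 in 0, and of 3 erythroid markers HBB was above it in all 12 and KLF1 in 0. The mean level of the epithelial or fibroblast markers ran from 5.06 to 5.23 in solvent arrays and from 5.20 to 5.44 with SGI-110. That of the lymphoid markers ran from 4.93 to 5.15 and from 5.01 to 5.17, and that of the erythroid markers from 4.93 to 5.00 and from 4.94 to 5.00. Some myeloid markers moved with SGI-110 alongside the factors: CEBPA rose by 0.17, LYZ by 0.24 and PTPRC by 0.69, 3 of 7, in 16, 17 and 22 of the 23 alternatives. The mean level of the 7 ran from 9.20 to 9.53 in solvent arrays and from 9.60 to 9.75 with SGI-110. KRT18 rose by 0.83, the only call among 4 epithelial or fibroblast markers tested with SGI-110 alone, and 0 of 2 erythroid and 0 of 3 lymphoid markers were called. In the combination against ASTX660, CEBPA rose by 0.16 and PTPRC by 0.52 (2 of 7), and KRT18 rose by 0.76 and KRT8 by 0.62 (2 of 4), in 16, 13, 21 and 16 of the 23 alternatives. The part of these changes in the lower levels of the ribosome biogenesis factors was not tested.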

How the data were processed

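Total RNA of ML-2 cells was labelled from 100 ng with biotin by a 3' IVT kit, per the labels' protocols. The authors deposited RMA log2 intensities of 54675 probe sets for 12 arrays, and the submitters' processing notes name affy and RMA without a version. RMA brings arrays to 1 distribution, so a change in total RNA per cell does not show. The sources used here do not say whether all arrays shared 1 run. The values were used as deposited (2.078 to 14.38, array medians 4.688 to 4.774).

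Probe sets were named with the platform annotation, which listed 42898 of them. The 1801 with several genes were left out and 41091 were used. Each gene took its probe set with the highest mean, and 12689 genes were above the median of 3 or more arrays. One limma 3.58.1 model (R 4.3.3) with a mean per group, an intensity trend and Benjamini-Hochberg adjustment gave all 6 comparisons. The median SE was 0.085 log2 units, and 0.12 for the interaction, so 3 arrays per group limit the precision. The script was tested on simulated data.

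Array values were given for the members with the smallest limma p in each role (1 of 3, 2 of 6, 4 of the larger roles), the largest p, and FBL, NCL and NPM1. The members, lists and motifs were chosen with earlier results of these data known. The labels do not say that a title number marks a shared experiment. Deviations from the group mean correlated between same-numbered arrays (2, 9, 13) at 0.377, 0.367 and 0.572 for SGI-110 and solvent, all above 0.1. They were 0.15, 0.159 and 0.541 for the combination and solvent, and also above 0.1 for ASTX660 and solvent and for the combination and SGI-110. For the combination and ASTX660 they were 0.057, 0.158 and 0.539, below 0.1 for number 2. The number was read as pairing the samples above 0.1, but the main fit left this pairing out. With the replicate block 31, 35 and 29 factors were called lower in the 3 comparisons with SGI-110, against 27, 31 and 23. Lower calls over all genes were 1315, 1656 and 1273 with the block, against 749, 976 and 742. Alternatives were the replicate block, scalings, brightness filters, probe set choices, variance models and leaving out arrays. A gene with 1 probe set kept it under the probe set choices. Promoter windows came from RefSeq (GRCh38.p14).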

Additional observations from a re-analysis of the deposited data

How the results depend on the processing

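No member was called higher in any of the 3 comparisons that contrast SGI-110 with its absence, under any of the 23 alternatives. Counts of members called lower moved by more than 1.5 times in these cases. Without the 4 arrays numbered 13 they were 11 for SGI-110 against solvent, 14 for the combination against ASTX660 and 10 for the combination against solvent. Lower calls over all genes were then 338, 425 and 298, against 749, 976 and 742 with all arrays. Leaving out 1 array at a time gave 17 to 29 and 16 to 31 in the first and second of these, and 16 to 26 in the third, where no single array moved the count of 23 by more than 1.5 times. These fits have fewer samples. With the title number as a replicate block the counts were 31, 35 and 29, and all-gene calls were 3202, 3378 and 3632, against 1955, 2038 and 2275 without it. The median over the factors stayed between -0.27 and -0.22, between -0.25 and -0.21, and between -0.26 and -0.21. RRP12, near 0 throughout, changed sign: to -0.023 under quantile normalization, -0.058 as the mean of its probe sets, and -0.004 without the arrays numbered 13 (SGI-110 against solvent), and to -0.043 (mean) and -0.082 (second probe set) in the combination against ASTX660. Leaving out 1 array at a time gave RRP12 values from -0.013 to 0.028 and from -0.022 to 0.079. The cause was not tested. Of the single-gene values recomputed, 864 kept direction and side of the threshold, 71 lost the call, 17 gained it and 8 reversed. The number of arrays limits what could be called, and factors near the threshold change side most easily.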
